A study of Mus musculus with 6 samples.

Results

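In mammary tumors of BK5.ATF3 mice, genes of the integrated stress response and the unfolded protein response differed in direction between tumor and gland. *Sesn2*, a stress-induced inhibitor of mTORC1 signaling, was upregulated 2.84-fold in mean CPM. *Herpud1*, which helps clear misfolded proteins from the endoplasmic reticulum (ER), fell to 0.503 of its level in the adjacent glands, and *Atf5* fell to 0.559. The FDR was at most 0.05 in 13 of 13 alternative fits for *Herpud1* but in 9 of 13 for *Atf5*. The remaining 6 genes that were analysed, had mean ratios of tumor to gland between 0.707 and 1.75 and did not pass the test in the fit without a block for the mouse, whereas *Atf4* (FDR = 0.0475) and *Hspa5* (FDR = 0.0274) had an FDR under 0.05 with the mouse as a block. The 10 genes were listed by symbol for their place in these pathways: the transcription factor genes *Atf4*, *Atf5*, *Ddit3* and *Xbp1*, the pseudokinase gene *Trib3*, the ATF4 targets *Asns* and *Sesn2*, the phosphatase subunit gene *Ppp1r15a*, and the ER genes *Hspa5* and *Herpud1*. Of these 10 genes, 9 were among the 15280 genes tested, and *Trib3* was not analysed here.

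RNA-Seq was performed on 3 parous female mice, each giving 1 mammary tumor (libraries T11035, T11640 and T9232) and 1 normal mammary gland from beside it (M11035, M11640 and M9232), where libraries with the same number come from the same mouse. Every mouse carried the ATF3 transgene, whose BK5 promoter acts in basal epithelial cells, so the glands were transgenic too and no gland without the transgene was analysed here. The mice had each raised 1 litter, tumors appeared at 6 to 12 months of age, and tissue was taken once a tumor measured 1.5 cm. The strain background, the age of each mouse and the share of tumor cells in each piece of tissue were not given in the sources used here. Values are CPM, the fragments of a gene scaled to the effective size of its library, and a differentially expressed gene (DEG) is one with a false discovery rate (FDR) of at most 0.05 and a fold change of at least 2 between the 3 tumors and the 3 glands. "Rose" and "fell" are used for genes with an FDR of at most 0.05 whatever the size of the change.

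In the integrated stress response, the kinases PERK, GCN2, PKR and HRI phosphorylate the alpha subunit of the translation initiation factor eIF2 when a cell meets ER stress, lack of amino acids, double-stranded RNA or lack of heme. Most translation then slows, the *Atf4* mRNA is translated more, and ATF4 turns on genes for amino acid supply, redox balance and, through CHOP (the product of *Ddit3*), cell death. The unfolded protein response adds the ER sensors IRE1 and ATF6: IRE1 splices the *Xbp1* mRNA into the form that encodes the active factor, and XBP1 and ATF6 together raise chaperones and the machinery that degrades misfolded proteins. XBP1 is best known in heavily secreting cells such as plasma cells and milk-producing alveolar cells. Translation of *Atf4*, splicing of *Xbp1* and phosphorylation of eIF2 cannot be read from gene-level CPM.

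The libraries held between 4750989 and 7806908 fragments counted to genes, so that 3 fragments correspond to 0.393 to 0.610 CPM. These totals are well below the read pairs per sample that the paper reports, so they do not give the sequencing depth. Glands and tumors differed widely in markers of other cell types. Summed CPM of 12 adipocyte markers was 6279 to 11433 in glands and 241 to 343 in tumors, with 12 of 12 downregulated, and that of 15 squamous epithelial markers was 112 to 155 in glands and 5096 to 7078 in tumors, with 14 of 15 upregulated. The 16 luminal and milk genes summed to 1818 to 21327 CPM in glands and 618 to 755 in tumors (5 upregulated, 9 downregulated), and the 11 B and plasma cell genes to 1191 to 2069 and 338 to 537 (2 upregulated, 9 downregulated). Of T cell markers 7 of 7 were downregulated (184 to 467 CPM in glands, 28.1 to 47.7 in tumors), of neutrophil markers 5 of 6 were upregulated (78.3 to 170 and 830 to 1455), and of fibroblast markers 5 of 10 were upregulated and 1 downregulated (1304 to 4973 and 12330 to 14150). Endothelial markers had 3 of 8 downregulated (375 to 511 and 214 to 307), macrophage markers had 1 up and 1 down of 10 (334 to 1060 and 686 to 1056), and muscle markers had 2 of 10 downregulated (5.61 to 4434 and 9.04 to 21.96). Among the defining markers, *Lalba* was at 0 in all 3 tumors and *Lor* in all 3 glands. Gland M9232 stood apart with 14121 CPM of the milk transcript *Csn2* against 506 and 670 in the other glands, and gland M11035 held the highest muscle sum. For every bulk value given here, fewer cells of a type and less RNA per cell cannot be told apart, and the part of these cell type markers in the results was not tested.

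Under the fit without a block for the mouse, 1 of the 9 genes was a DEG (*Sesn2*, upregulated), against 28.2% of all genes tested, 14.5% upregulated and 13.7% downregulated. With no fold threshold, 3 of 9 had an FDR of at most 0.05 (*Sesn2* rose, *Atf5* and *Herpud1* fell), against 41.2% of all genes. A fit with the mouse as a block gave 5 of 9, adding *Atf4* (FDR = 0.0475) and *Hspa5* (FDR = 0.0274), against 41.2% of all genes in that fit. Tumor and gland values did not overlap for 6 of 9 genes, 3 of them higher and 3 lower in tumors, against 54.0% of all genes in either direction, and with 3 libraries in each tissue the smallest p of a two-sided exact permutation test is 0.1. The median log2 fold change was -0.32 over the 9 genes and -0.003 over all genes. Among the 9 genes the shares of DEGs and of genes past the FDR without the block were below those of all genes. The shares past the FDR with the block and without overlap were above those of all genes. No count was tested against its background, so no direction is read from these shares.

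**Figure D1:**
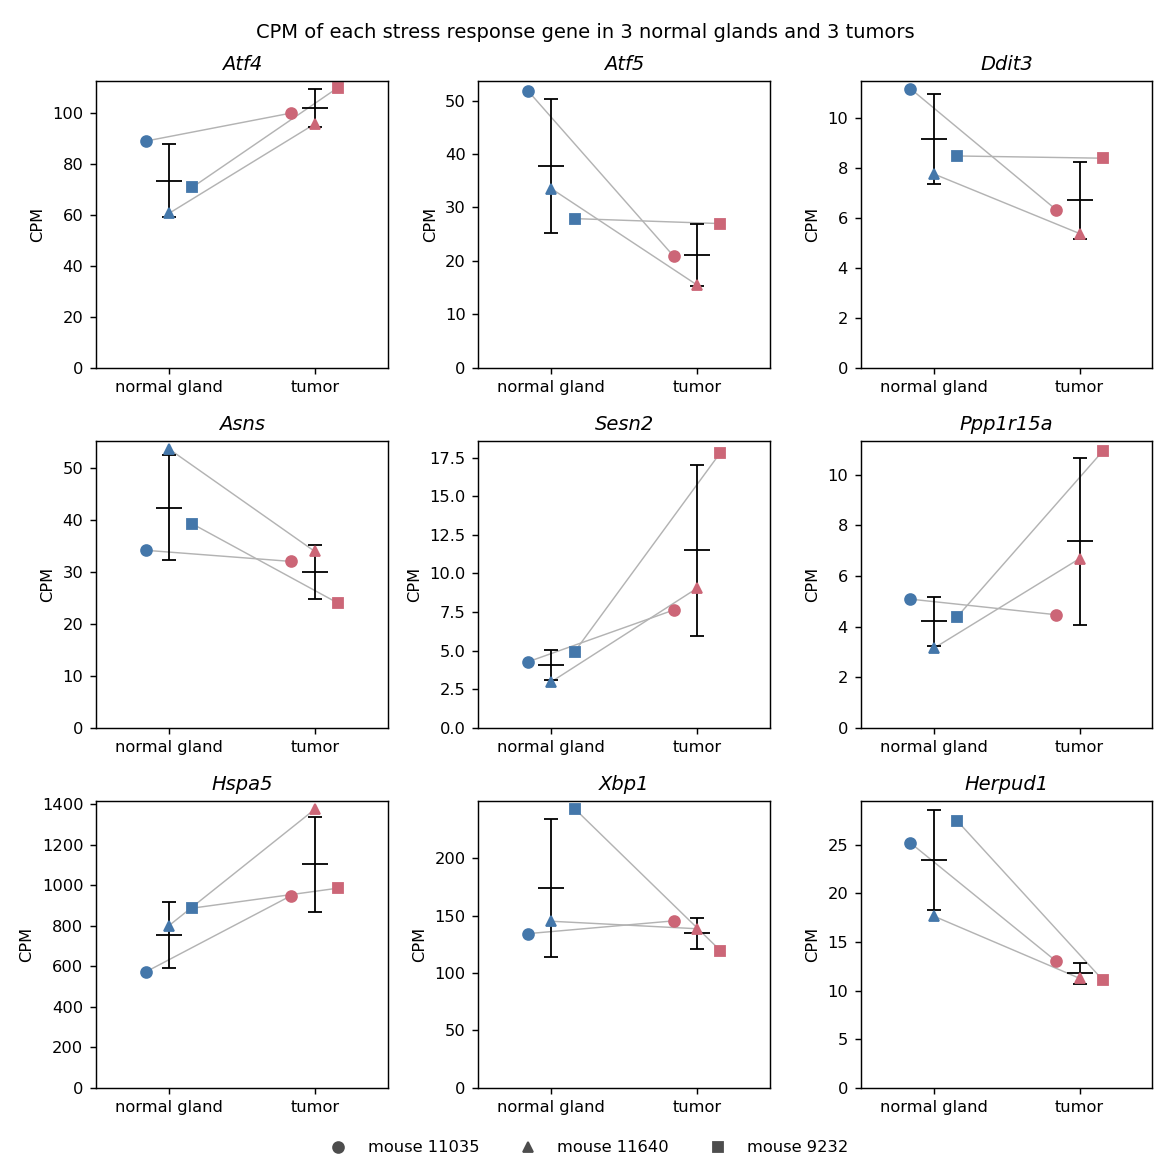
CPM of the 9 genes in the 3 normal glands (blue) and 3 tumors (red), with each mouse's pair joined by a line; the horizontal bar and whiskers are the mean and SD. The tumors lie above the glands for *Atf4*, *Sesn2* and *Hspa5*, below them for *Atf5*, *Asns* and *Herpud1*, and overlap them for *Ddit3*, *Xbp1* and *Ppp1r15a*.

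**Figure D2:**
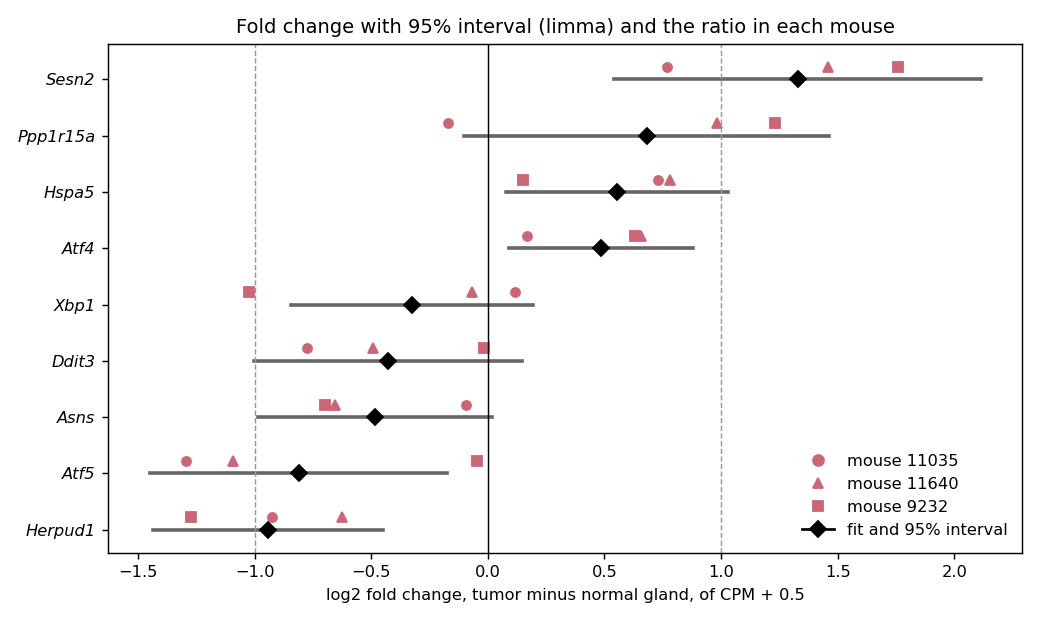
Fitted log2 fold change (tumor minus gland, of CPM + 0.5) of each gene with its 95% interval, and the same ratio within each of the 3 mice as red symbols; dashed lines mark a fold change of 2. The estimates run from -0.94 for *Herpud1* to 1.33 for *Sesn2*, and *Sesn2* is the gene whose estimate lies beyond a dashed line.

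Upstream of ATF4, the eIF2 kinase genes were compared first. *Eif2ak2*, which encodes the double-stranded RNA sensor PKR, measured 66.7, 120 and 138 CPM in glands M11035, M11640 and M9232, and 308, 294 and 307 CPM in tumors T11035, T11640 and T9232. Every tumor was above every gland, and the gene was upregulated (log2 fold change 1.54 ± 0.25 SE, FDR = 0.00147). PKR is also an interferon-induced protein. The other kinase genes gave log2 fold changes of -0.28 for *Eif2ak3* (PERK, FDR = 0.206), -0.24 for *Eif2ak4* (GCN2, FDR = 0.358) and -0.08 for *Eif2ak1* (HRI, FDR = 0.691). Over the whole list of 21 genes for eIF2, its kinases, its exchange factor eIF2B and its phosphatases, the median log2 fold change was 0.17. By limma 1 was upregulated and 0 were downregulated (0 by edgeR and DESeq2), against 14.5% and 13.7% of all genes. At the FDR alone 4 rose and 0 fell (0 also at an unadjusted p under 0.05), against 41.2% of all genes. The other genes that rose were *Eif2s1* (0.58) and *Eif2s2* (0.996, just under the fold threshold and past it by edgeR and DESeq2), which encode the alpha and beta subunits of eIF2, and *Eif2b4* (0.75), an eIF2B subunit.

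*Ppp1r15a* (chr7:52778286-52781638, minus strand, mm9 as for all gene positions given here) encodes GADD34, the stress-induced subunit that brings protein phosphatase 1 to eIF2 and so ends the response. It measured 5.08, 3.14 and 4.38 CPM in glands M11035, M11640 and M9232, and 4.47, 6.68 and 10.9 CPM in the matching tumors, from 19 to 32 and 24 to 73 fragments. Tumor T11035 lay among the glands, and the other tumors lay above all glands. The mean was 4.20 ± 0.984 CPM in glands and 7.36 ± 3.29 in tumors (SD, n = 3 each), and the log2 fold change of 0.68 (95% interval -0.10 to 1.46) did not pass the test (FDR = 0.147). *Ppp1r15b*, the constitutive partner with the same role, measured 139 ± 10.6 CPM in glands and 114 ± 5.72 in tumors (log2 fold change -0.28, FDR = 0.122). *Ppp1r15a* is also an immediate early gene in many cells. In a list of 15 immediate early genes, 4 were upregulated and 1 was downregulated, against 14.5% and 13.7% of all genes. Their summed CPM was 410 to 604 in glands and 696 and 804 in tumors T11035 and T11640. It was 1081 in tumor T9232, the tumor with the most *Ppp1r15a*. The part of these genes in the *Ppp1r15a* values was not tested.

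*Atf4* (chr15:80085614-80087970, plus strand) encodes the central transcription factor of the integrated stress response. Glands M11035, M11640 and M9232 held 89.1, 60.6 and 70.9 CPM, and the tumors 100.1, 95.8 and 110 CPM. All 3 tumors were above all 3 glands, with the smallest step from M11035 to T11035. The mean was 73.5 ± 14.4 CPM in glands and 102 ± 7.35 in tumors, a log2 fold change of 0.49 (95% interval 0.09 to 0.88) with an FDR of 0.0511, on the other side of the threshold from the 0.0475 obtained with the mouse as a block.

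*Atf5* (chr7:52067627-52072028, minus strand) encodes a related bZIP factor that is translated under the same control as ATF4. It measured 51.8, 33.5 and 27.9 CPM in the glands and 20.8, 15.5 and 27.0 CPM in the tumors, in the same order of mice. The tumors were below the glands, but M9232 and T9232 were nearly equal. Its mean was 37.8 ± 12.5 CPM in glands and 21.1 ± 5.76 in tumors, and it fell by 0.81 on the log2 scale (95% interval -1.45 to -0.17, FDR = 0.0462). Without M9232 or without T9232 the log2 fold change passed the threshold (-1.002 and -1.003), which made *Atf5* a DEG, and with any other library left out the FDR was 0.0745 to 0.170. Exons of *Atf5* overlap those of *Nup62* on the opposite strand and of *Il4i1*, and the library kit is not stated to keep strand, so reads from the shared stretch cannot be told apart.

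*Ddit3* (chr10:126727830-126733344, plus strand) encodes CHOP, the factor that links a lasting stress response to cell death. The glands held 11.2, 7.76 and 8.48 CPM and the tumors 6.33, 5.37 and 8.39 CPM, from 34 to 62 fragments. Tumor T9232 lay within the range of the glands, and the other tumors lay below it. The mean was 9.14 ± 1.80 CPM in glands and 6.70 ± 1.54 in tumors (log2 fold change -0.43, 95% interval -1.002 to 0.15, FDR = 0.208). Exons of *Ddit3* overlap those of *Mars* on the opposite strand.

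*Sesn2* (chr4:132047947-132066416, minus strand) encodes Sestrin2, a leucine sensor that ATF4 and p53 are known to induce. It measured 4.27, 2.97 and 4.92 CPM in glands M11035, M11640 and M9232 and 7.63, 9.04 and 17.8 CPM in the tumors, from 18 to 36 and 41 to 119 fragments. Every tumor was above every gland and tumor T9232 stood well above the other tumors. The mean was 4.06 ± 0.993 CPM in glands and 11.5 ± 5.53 in tumors, and *Sesn2* was upregulated with a log2 fold change of 1.33 ± 0.34 SE (95% interval 0.54 to 2.11, FDR = 0.0147). Without T9232 the log2 fold change was 0.98 (FDR = 0.0450), just under the fold threshold. The related sestrin genes went the other way at much higher CPM: *Sesn1*, a p53 target, fell from 82.7 ± 6.65 to 43.8 ± 3.06 CPM (log2 fold change -0.91, FDR = 0.00142) and *Sesn3*, a FoxO target, from 55.8 ± 6.11 to 36.3 ± 6.63 CPM (-0.62, FDR = 0.0268). Both were singled out after their values were seen.

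*Asns* (chr6:7625169-7643254, minus strand) encodes asparagine synthetase, the best studied amino acid target of ATF4. Its promoter, and those of *Ppp1r15a*, *Hspa5* and *Herpud1*, are printed because they hold the short sequences through which ATF4, XBP1, ATF6 and CREB family factors are known to act, so that the direction of each gene can be read beside its sequence. The 250 bases before the start of transcription are from RefSeq (GRCm38.p6), 5′ to 3′ on the strand of the gene, with matches in capitals. All 9 genes had a promoter in this table, *Atf5* 2 of them.

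*Asns* (chr6:7693210-7693459, minus strand): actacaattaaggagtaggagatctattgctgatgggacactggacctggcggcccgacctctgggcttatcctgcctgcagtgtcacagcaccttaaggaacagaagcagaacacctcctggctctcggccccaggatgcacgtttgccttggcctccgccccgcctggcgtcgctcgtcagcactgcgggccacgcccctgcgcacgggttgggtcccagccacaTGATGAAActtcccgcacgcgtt

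*Ppp1r15a* (chr7:45526269-45526518, minus strand): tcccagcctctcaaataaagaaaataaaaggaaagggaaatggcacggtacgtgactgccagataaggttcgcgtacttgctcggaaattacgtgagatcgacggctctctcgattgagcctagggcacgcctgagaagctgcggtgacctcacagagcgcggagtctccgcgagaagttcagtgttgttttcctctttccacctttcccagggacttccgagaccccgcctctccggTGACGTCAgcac

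*Hspa5* (chr2:34771840-34772089, plus strand): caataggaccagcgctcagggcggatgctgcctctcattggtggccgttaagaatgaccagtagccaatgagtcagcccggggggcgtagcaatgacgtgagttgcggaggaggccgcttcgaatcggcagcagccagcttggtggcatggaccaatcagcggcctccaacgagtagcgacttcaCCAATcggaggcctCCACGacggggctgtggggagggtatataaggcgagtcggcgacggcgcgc

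*Herpud1* (chr8:94386179-94386428, plus strand): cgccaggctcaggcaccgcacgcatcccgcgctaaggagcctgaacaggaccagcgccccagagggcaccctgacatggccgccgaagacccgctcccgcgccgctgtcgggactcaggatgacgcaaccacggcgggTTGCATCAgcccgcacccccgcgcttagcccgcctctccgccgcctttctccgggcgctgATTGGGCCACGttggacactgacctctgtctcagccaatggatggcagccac

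Both strands were searched for the C/EBP-ATF response element (CARE, TGATGNAA), the ER stress response element (ERSE, CCAAT and CCACG with 9 bases between them), the unfolded protein response element (UPRE, TGACGTGG) and the cAMP response element (CRE, TGACGTCA). Among 32851 RefSeq promoters of the same length, 3.45% held a CARE, 0.113% an ERSE, 0.563% a UPRE and 1.55% a CRE. In *Asns* the capitals mark a CARE 23 to 16 bases before the start, in *Ppp1r15a* a CRE 12 to 5 bases before it, and in *Hspa5* an ERSE 65 to 47 bases before it. In *Herpud1* they mark a CARE on the opposite strand (112 to 105 bases before the start) and an ERSE-II (52 to 42 bases before it), a motif of ATTGG and CCACG with 1 base between them that was searched after the sequences had been seen and that 0.0304% of the promoters held. None of these letters was found in this window of *Atf4*, *Atf5*, *Ddit3*, *Sesn2* or *Xbp1*. A match is a description of the sequence and not of binding.

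*Asns*, with a CARE in its promoter, measured 34.2, 53.7 and 39.3 CPM in the glands and 32.0, 33.9 and 24.0 CPM in the tumors. The tumors were below the glands by a narrow gap, T11640 at 33.9 against M11035 at 34.2. The mean was 42.4 ± 10.1 CPM in glands and 30.0 ± 5.29 in tumors (log2 fold change -0.48, 95% interval -0.98 to 0.02, FDR = 0.113). *Sesn2*, with none of the searched motifs in the same window, is the gene that was upregulated. The part of these motifs in the values was not tested.

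Of 14 genes for amino acid and folate metabolism known as ATF4 targets, *Asns* included, 3 were upregulated and 1 was downregulated. Among all genes the shares were 14.5% and 13.7%, and the list's median log2 fold change was 0.10. *Cth*, which makes cysteine from cystathionine, measured 1.83, 1.65 and 0.821 CPM in the glands and 13.2, 8.78 and 11.8 CPM in the tumors. Every tumor was several-fold above every gland (log2 fold change 2.63, FDR = 0.000256). The gland values of *Cth* rest on few fragments, as 1 fragment is 0.203 CPM in M11035 and 0.137 CPM in M9232. *Aldh1l2*, a mitochondrial folate enzyme, was upregulated from 9.31 ± 3.38 to 28.1 ± 1.51 CPM (1.60, FDR = 0.00131), as was *Psat1*, an enzyme of serine synthesis, from 71.6 ± 10.5 to 211 ± 3.95 CPM (1.56, FDR = 8.41e-05). *Gpt2*, a mitochondrial alanine aminotransferase, was downregulated from 114 ± 20.9 to 41.4 ± 4.82 CPM (-1.44, FDR = 0.000395). Of the serine synthesis enzymes beside *Psat1*, *Psph* fell (log2 fold change -0.61, FDR = 0.0471) and *Phgdh* had a log2 fold change of -0.12 (FDR = 0.818), so that these neighbors in the same pathway did not share a direction. *Psat1*, *Psph* and *Phgdh* were named after their values were seen.

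A list of 22 other targets and partners of ATF4 and CHOP, *Sesn2*, *Atf5* and *Ddit3* included, had a median log2 fold change of 0.09. It held 4 upregulated and 2 downregulated genes, against 14.5% and 13.7% of all genes. At the FDR alone 6 rose and 7 fell, against 41.2% of all genes in either direction. *Ero1l*, the ER oxidase that renews disulfide bonds and a known target of CHOP and of hypoxia, measured 82.5, 107 and 104 CPM in the glands and 430, 498 and 470 CPM in the tumors. The groups were far apart, and *Ero1l* was upregulated by 2.25 on the log2 scale (FDR = 1.35e-05). The part of CHOP or of hypoxia in the *Ero1l* values was not tested. *Ddit4*, an mTORC1 inhibitor induced by ATF4, hypoxia and glucocorticoids, was upregulated from 11.9 ± 5.93 to 49.6 ± 22.6 CPM (2.07, FDR = 0.00604) and, like *Sesn2*, was highest in T9232 (75.7 CPM against 35.7 and 37.5). The secreted glycoprotein gene *Stc2* (-1.84, FDR = 0.00812) and the lipoprotein receptor gene *Vldlr* (-1.73, FDR = 0.00136) were downregulated. *Atf3* is a target of ATF4 and the mouse gene for the factor that the transgene of this model encodes. It measured 4.47, 8.09 and 22.6 CPM in the glands and 13.4, 18.3 and 19.3 CPM in the tumors. The ranges overlapped through M9232, and the log2 fold change was 0.80 (FDR = 0.223), or 1.41 (FDR = 0.00804) without M9232. Whether reads of the transgene were counted to *Atf3* was not given in the sources used here.

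Among ER stress sensors and their effectors, *Ern1*, which encodes IRE1, had a log2 fold change of 0.01 (FDR = 0.955), *Atf6* of -0.05 (FDR = 0.808) and the PERK gene *Eif2ak3* of -0.28. The *Atf6* paralog *Atf6b* measured 8.74, 6.44 and 8.07 CPM in the glands and 10.8, 11.1 and 14.4 CPM in the tumors, with no overlap (log2 fold change 0.61, FDR = 0.0558). Of 19 genes, 3 were upregulated and 2 downregulated, against 14.5% and 13.7% of all genes, and the median log2 fold change was 0.09. The upregulated genes were *Creb3l1*, an ER-bound factor that drives collagen secretion (3.86, 8.09 and 8.75 CPM in glands, 16.7, 15.3 and 15.6 in tumors, log2 fold change 1.22, FDR = 0.0115), and the pro-apoptotic genes *Bak1* (1.09, FDR = 0.0148) and *Bax* (1.02, FDR = 0.00352). *Bcl2*, the anti-apoptotic gene that CHOP is known to repress, was downregulated from 154 ± 34.1 to 55.6 ± 1.52 CPM (-1.43, FDR = 0.000369), and *Map3k5*, a kinase downstream of IRE1, from 99.4 ± 4.02 to 48.7 ± 3.85 CPM (-1.02, FDR = 0.000575). *Bak1*, *Bax* and *Map3k5* lost the DEG call without T9232, at log2 fold changes of 0.83, 0.91 and -0.97. *Bak1* also lost it without M11640 (0.91), *Bax* and *Map3k5* without M9232 (0.97 and -0.998), *Bax* with a pseudocount of 1 as well (0.985), and *Creb3l1* without M11035 (0.88).

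*Xbp1* (chr11:5420662-5425896, plus strand) measured 134, 145 and 243 CPM in glands M11035, M11640 and M9232 and 146, 139 and 120 CPM in the tumors. Gland M9232 stood apart, and the other 2 glands and the 3 tumors lay together between 120 and 146 CPM. The mean was 174 ± 60.0 CPM in glands and 135 ± 13.4 in tumors (log2 fold change -0.32, 95% interval -0.84 to 0.19, FDR = 0.284). Without M9232 the log2 fold change was -0.06 (FDR = 0.818). M9232 was also the library with the most *Csn2* (14121 CPM), the most *Lalba* (14.1 CPM) and the most of the plasma cell transcript *Igj* (1178 CPM, with 1078 in M11640 and 331 in M11035). The tumors held 13.0 to 62.5 CPM of *Csn2* and 8.37 to 26.4 CPM of *Igj*, and their *Xbp1* values lay beside those of M11035 and M11640. The part of milk and plasma cell transcripts in the *Xbp1* values was not tested.

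**Figure D3:**
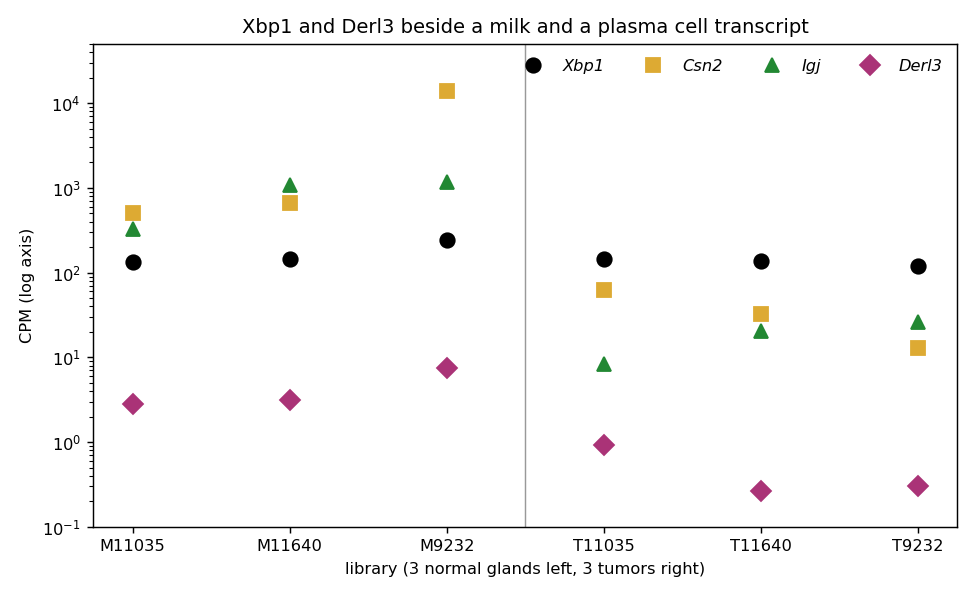
CPM on a log axis of *Xbp1*, the milk transcript *Csn2*, the plasma cell transcript *Igj* and *Derl3* in each of the 6 libraries, with the glands left and the tumors right of the line. *Csn2* and *Igj* were lower in every tumor than in every gland, while *Xbp1* lay between 120 and 243 CPM in all 6 libraries with its highest value in M9232.

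*Hspa5* (chr2:34627490-34632051, plus strand) encodes BiP, the main Hsp70 chaperone of the ER lumen and the usual readout of the unfolded protein response. The glands held 572, 800 and 887 CPM and the tumors 950, 1375 and 986 CPM, in the order M11035, M11640, M9232 and T11035, T11640, T9232. Every tumor was above every gland, and the step was smallest from M9232 to T9232. The mean was 753 ± 163 CPM in glands and 1104 ± 236 in tumors, a log2 fold change of 0.55 (95% interval 0.08 to 1.03) with an FDR of 0.0628, or 0.0274 with the mouse as a block. Over 28 ER chaperones and folding enzymes, *Hspa5* included, the median log2 fold change was 0.39. On this list 5 were upregulated and 2 were downregulated, against 14.5% and 13.7% of all genes. At the FDR alone 10 rose and 3 fell, against 41.2% of all genes in either direction. No list count given here was tested against these shares.

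On the chaperone list, the upregulated genes beside *Ero1l* were the protein disulfide isomerase genes *Pdia5* (1.40), *P4hb* (1.23) and *Pdia3* (1.08), and *Fkbp14* (1.41), a prolyl isomerase that acts on collagen. *P4hb* is also a subunit of collagen prolyl hydroxylase, and *Fkbp14* overlaps *Plekha8* on the opposite strand. Fibroblast markers, which include collagen genes, summed to 1304 to 4973 CPM in glands and 12330 to 14150 in tumors, and their part in these values was not tested. *Ero1lb*, the second ER oxidase gene, was downregulated from 79.3, 60.1 and 95.2 CPM in the glands to 20.8, 23.1 and 24.9 CPM in the tumors (-1.73, FDR = 0.000219), the opposite direction to *Ero1l*. *Cdnf*, an ER-resident secreted factor, was downregulated from 13.3 ± 5.07 to 3.13 ± 1.37 CPM (-1.93, FDR = 0.00322). The other gene of the list that fell, against 10 that rose at the FDR alone, was *Dnajb9*. It went from 46.5 ± 6.30 to 29.9 ± 6.24 CPM (-0.64, FDR = 0.0317). Other disulfide enzyme genes of the list gave log2 fold changes of 0.59 (*Pdia6*, FDR = 0.00863), 0.42 (*Pdia4*, FDR = 0.0667), 0.28 (*Dnajc10*, FDR = 0.135) and 0.02 (*Txndc5*, FDR = 0.93). All of these but *Ero1l*, *Ero1lb*, *Fkbp14* and *Cdnf* were named after their values were seen, and *Pdia3* lost the call without M11035 (0.90) or T11640 (0.96).

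*Herpud1* (chr8:96910338-96919277, plus strand) encodes HERP, an ER membrane protein of the complex that retrotranslocates misfolded proteins for degradation. It measured 25.2, 17.7 and 27.5 CPM in glands M11035, M11640 and M9232 and 13.0, 11.3 and 11.1 CPM in the tumors. All tumors were below all glands and close to each other. The mean was 23.5 ± 5.14 CPM in glands and 11.8 ± 1.07 in tumors, and *Herpud1* fell by 0.94 on the log2 scale (95% interval -1.44 to -0.45, FDR = 0.00845), the smallest FDR of the 9 genes and just short of a fold of 2. It passed the fold threshold without M11640 (-1.13) and without T11035 (-1.01). *Herpud1* and *Hspa5* both hold an ERSE-type motif in the promoters printed above, and their tumor values lay on opposite sides of the glands. Whether the motifs bear on these values was not tested.

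Over 25 genes of ER-associated degradation, *Herpud1* included, the median log2 fold change was -0.17. By limma 0 were upregulated and 1 was downregulated, against 14.5% and 13.7% of all genes. By edgeR or DESeq2 0 were upregulated too, and 0 rose at an unadjusted p under 0.05. At the FDR alone 41.2% of all genes passed in either direction. With no fold threshold 0 rose and 4 fell: *Derl3*, *Herpud1*, the ubiquitin-conjugating enzyme gene *Ube2j1* (-0.80) and the ubiquitin ligase gene *March6* (-0.46). *Derl3*, a derlin of the retrotranslocation channel that is also on the B and plasma cell list, measured 2.85, 3.14 and 7.39 CPM in the glands and 0.930, 0.262 and 0.2997 CPM in the tumors, where 2 of 3 values lie under the level of 3 fragments. Its log2 fold change was -2.26 (FDR = 0.00375), and its highest value was in M9232.

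The 26 genes of translocation into the ER and of ER to Golgi transport, many of them known XBP1 targets, had 2 upregulated DEGs and 0 downregulated by limma, edgeR or DESeq2. At the FDR alone 9 rose and 2 fell (*Sec11c* and *Golgb1*, also the 2 at an unadjusted p under 0.05), with a median log2 fold change of 0.33. Among all genes 14.5% were upregulated, 13.7% were downregulated and 41.2% passed the FDR in either direction. Both DEGs of the list were receptors that return escaped ER proteins such as BiP from the Golgi. *Kdelr3* measured 2.64, 4.46 and 3.28 CPM in the glands and 20.3, 18.0 and 21.6 CPM in the tumors. The groups were far apart (log2 fold change 2.39, FDR = 0.000107), with the limit that *Kdelr3* overlaps *Ddx17* on the opposite strand. *Kdelr2* was upregulated from 34.8 ± 1.91 to 82.7 ± 8.46 CPM (1.24, FDR = 0.00031).

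**Figure D4:**
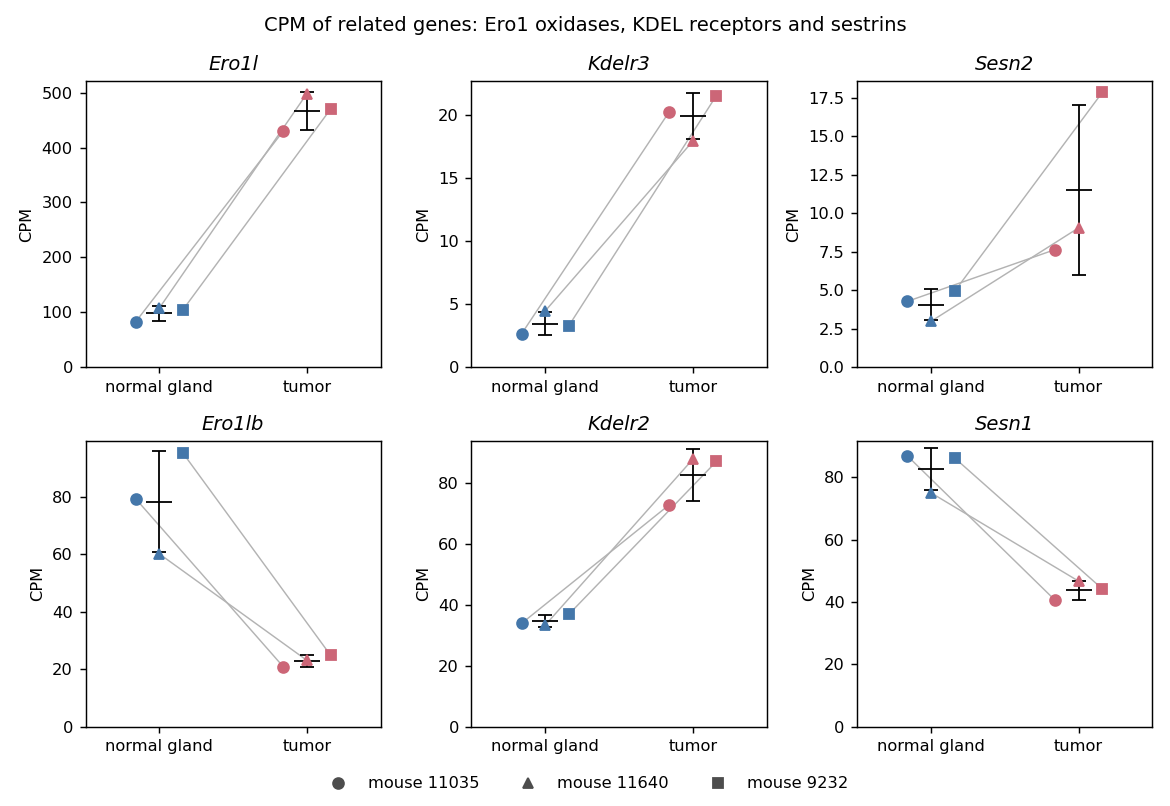
CPM of the ER oxidase genes *Ero1l* and *Ero1lb*, the KDEL receptor genes *Kdelr3* and *Kdelr2* and the sestrin genes *Sesn2* and *Sesn1* in the 3 glands (blue) and 3 tumors (red), with pairs from 1 mouse joined and the mean and SD as bar and whiskers. *Ero1l* and *Sesn2* rose while *Ero1lb* and *Sesn1* fell, and both KDEL receptor genes rose.

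Counted once each, the 8 pathway lists held 159 genes other than the 9, of which 16 were upregulated (10.1%), 8 were downregulated (5.03%) and 135 were neither, against 14.5% and 13.7% of all genes. Their median log2 fold change was 0.10.

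**Figure D5:**
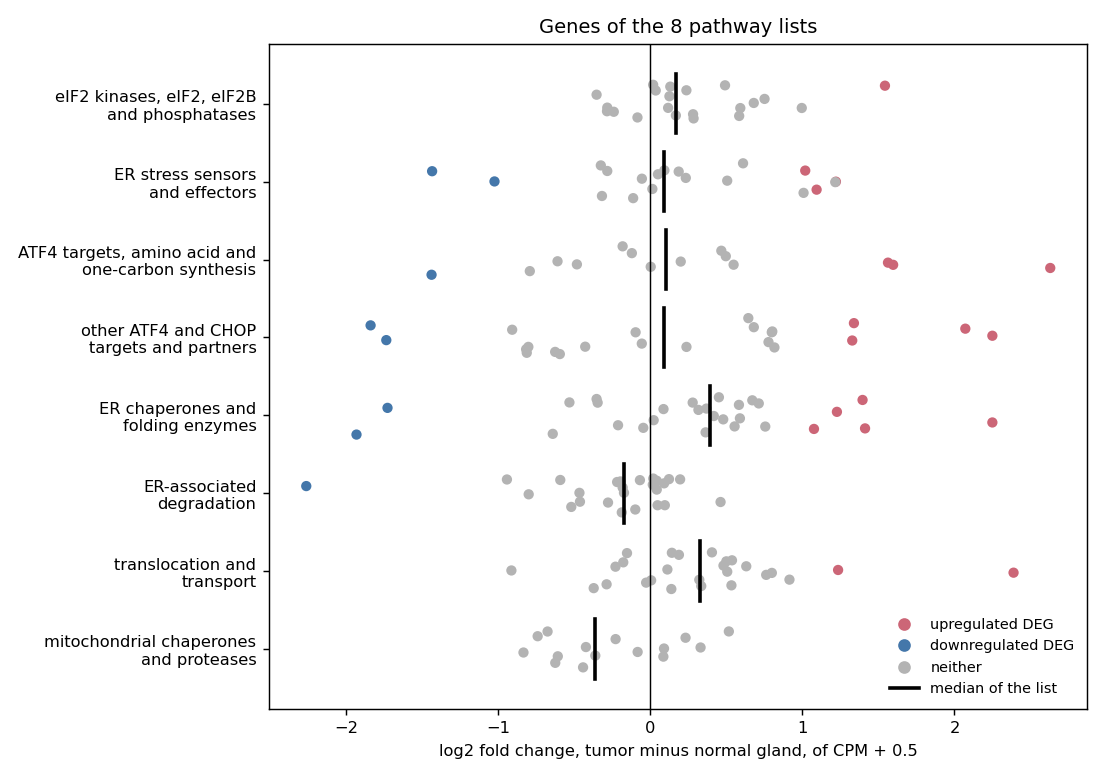
Log2 fold change (tumor minus gland, of CPM + 0.5) of every gene on the 8 pathway lists, 1 row per list, with upregulated DEGs in red, downregulated DEGs in blue, other genes in gray and the list median as a black bar; the vertical scatter within a row has no meaning. Medians run from -0.36 for mitochondrial chaperones, proteases and import subunits to 0.39 for ER chaperones. Most genes of every list are gray.

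Per kilobase of merged exons, *Hspa5* was the most abundant of the 9 genes in both tissues, at a mean of 214 CPM per kb in glands and 314 in tumors. In the glands *Xbp1* (53.7), *Atf4* (42.6), *Atf5* (19.0), *Asns* (15.5), *Herpud1* (10.1), *Ddit3* (5.34), *Ppp1r15a* (1.43) and *Sesn2* (1.17) followed in CPM per kb. In this order the gland values of *Xbp1* and *Atf4* overlapped, as did those of *Atf5* and *Asns* and those of *Ppp1r15a* and *Sesn2*. In the tumors the order in CPM per kb was *Atf4* (59.2), *Xbp1* (41.4), *Asns* (11.0), *Atf5* (10.6), *Herpud1* (5.06), *Ddit3* (3.91), *Sesn2* (3.31) and *Ppp1r15a* (2.51). There *Atf4* lay above *Xbp1* with no overlap, *Asns* and *Atf5* overlapped, and each of *Herpud1*, *Ddit3* and *Sesn2* overlapped the next in the order. By the means, *Sesn2* and *Ppp1r15a* had the lowest levels in both tissues, but in T9232 *Sesn2* (5.13) lay above *Ddit3* (4.90) and *Herpud1* (4.75).

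The mice differed in which genes moved most. From M9232 to T9232 the log2 ratio of tumor to gland was highest of the 3 mice for *Sesn2* (1.76) and *Ppp1r15a* (1.23), and lowest for *Xbp1* (-1.02), *Herpud1* (-1.27) and *Asns* (-0.70). In the same mouse *Atf5* (-0.05) and *Ddit3* (-0.01) hardly differed between tumor and gland, whereas from M11035 to T11035 they were at -1.29 and -0.78. The M11035 and T11035 pair had the lowest ratios for *Atf4* (0.17), *Sesn2* (0.77) and *Ppp1r15a* (-0.17). With 1 tumor and 1 gland from each mouse, a difference between mice cannot be told apart from a difference between pieces of tissue.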

How the data were processed

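RNA-Seq libraries (Ovation RNA-Seq System V2) of 3 tumors and 3 matched glands were analysed. Per the study's methods and the submitters' processing notes, reads passed CASAVA 1.8.2, were mapped to mm9 with TopHat2 2.0.3 and counted per RefSeq gene with HTSeq 0.5.3p9, genes with fewer than 10 fragments over all samples were removed, and edgeR 3.6.1 gave the values. The deposited table holds CPM on edgeR effective library sizes, recorded here as signal because the authors' columns sum to 952151 to 1041166 and not to 1 common total. Whole fragments were recovered from it (100% of values in each library within 0.01 of a whole number), with the totals given above. No value column was left out. Whether counting used strand was not given in the sources used here.

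The main test was limma 3.58.1 (R 4.3.3, trended empirical Bayes) on log2(CPM + 0.5) over 15280 genes with Benjamini-Hochberg adjustment, without a block, and the unit turned out as signal where CPM had been planned. Fold changes on this scale understate the change of low genes, and ratios called mean ratios are of mean CPM. The mouse numbers pair the libraries, since gland and tumor came from the same animal, and deviations from the group means over 14712 genes correlated by 0.107, 0.151 and 0.0168 for M11035 and T11035, M11640 and T11640, and M9232 and T9232. No 2 libraries of the same tissue agreed within sampling noise. The 3 mice are separate animals, and each tissue of a mouse is 1 library. Alternatives were pseudocounts of 0.1 and 1, a mean of at least 1 CPM, the mouse as a block, edgeR 4.0.16 quasi-likelihood and DESeq2 1.42.0 on the recovered fragments, CPM rescaled to a common total, and leaving out each library. The script was tested on simulated data.

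The 10 genes, the pathway and marker lists and the tests were chosen with earlier results of these data known. The text names the 10 genes, the kinase, sensor and phosphatase genes, *Atf3*, the 2 DEGs per list with the largest and the 2 with the lowest log2 fold change among genes averaging at least 1 CPM, and the 2 most abundant marker genes or those at 0. Other genes were named after their values were seen, among them *Bax*, *Eif2s1*, *Eif2s2*, *Eif2b4*, *Ube2j1*, *March6*, *Sec11c*, *Golgb1* and the mitochondrial chaperone and protease genes. Positions are mm9 (GENCODE vM1), and promoters are RefSeq (GRCm38.p6). BLAST 2.17.0 found no other transcript with at least 95% identity over 500 bp for any of the 9 genes.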

Additional observations from a re-analysis of the deposited data

How the results depend on the processing

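Each of the 9 genes kept the direction of its fold change in 13 of 13 alternatives. The number of the 9 that were DEGs was 1 in all alternatives that kept every library and 1 to 2 when 1 library was left out: *Herpud1* joined *Sesn2* without M11640 or T11035, *Atf5* joined it without M9232, and *Atf5* replaced it without T9232. The number with an FDR of at most 0.05 was 3 in the main fit, 5 with the mouse as a block, 4 with DESeq2 and 2 to 4 with 1 library left out. *Sesn2* was a DEG in 12 of 13 alternatives (log2 fold change 0.98 to 1.56, FDR 0.00293 to 0.0471). The FDR was at most 0.05 in 13 of 13 alternatives for *Herpud1* (0.00147 to 0.0392), in 9 of 13 for *Atf5* (0.0264 to 0.170), in 3 of 13 for *Atf4* (0.0176 to 0.144) and in 2 of 13 for *Hspa5* (0.0274 to 0.228). DEGs among all genes numbered 4309 in the main fit and 3774 to 4462 in the alternatives (4298 in the fit with the mouse as a block), and DEGs among the genes of the pathway lists 25 and 23 to 29. The block changed no call of a DEG among the 9 genes or the pathway lists, and of the pathway genes outside the 9 that are named here it moved none across the FDR threshold. Where leaving out a library moved a call, the cause was not tested. With 3 libraries in each tissue, *Sesn2* (18 to 119 fragments in each library) and *Ppp1r15a* (19 to 73) carried the widest intervals of the 9. The part of low counts in these widths was not tested. Exons of *Ppp1r15a*, *Bak1*, *Eif2ak2* and *Bcl2* overlap those of *Tulp2*, *Ggnbp1*, *Gm16825* and *D630008O14Rik*, which were not analysed here, and reads from the shared stretches cannot be told apart.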

Other observations

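A list for the response to misfolding in mitochondria, which acts through ATF4, ATF5 and CHOP, held 15 genes for mitochondrial chaperones, proteases and import subunits. Of these, 0 were DEGs by limma, edgeR or DESeq2. By limma 28.2% of all genes were DEGs, and the median log2 fold change of the list was -0.36. At the FDR alone 1 rose and 5 fell (1 and 6 at an unadjusted p under 0.05), against 41.2% of all genes. Those that fell were *Trap1*, a mitochondrial Hsp90 (from 56.7 ± 9.36 to 31.3 ± 1.06 CPM, log2 fold change -0.83, FDR = 0.00494), the protease subunit gene *Clpx* (-0.74, FDR = 0.00746), the cochaperone gene *Dnaja3* (-0.67, FDR = 0.0331), the Hsp70 gene *Hspa9* (-0.62, FDR = 0.0245) and the protease gene *Lonp1* (-0.61, FDR = 0.0365), all named after their values were seen. *Hspe1*, the cochaperonin, rose by limma (0.52, FDR = 0.0468) but not by edgeR or DESeq2, while *Hspd1*, its partner chaperonin, had a log2 fold change of 0.09 (FDR = 0.738). Adipocyte markers, which mark cells of the fat pad, fell together in the same tumors, and their part in these values was not tested.

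Ratios of related genes within a library do not depend on library size, and the pairs given here were chosen after their values were seen. The log2 ratio of *Ero1l* to *Ero1lb* was 0.06 to 0.83 in the glands and 4.21 to 4.40 in the tumors. For *Atf4* to *Atf5* it was 0.77 to 1.33 and 2.01 to 2.59, and for *Hspa5* to *Herpud1* 4.48 to 5.46 and 6.13 to 6.87. *Sesn2* to *Sesn1* went from -4.44 to -4.00 in the glands to -2.34 to -1.29 in the tumors, and *Ppp1r15a* to *Ppp1r15b* from -5.32 to -4.70 to -4.44 to -3.35. In each of these pairs the glands and the tumors did not overlap. For every pair but *Ppp1r15a* to *Ppp1r15b* this follows from the single genes, which lay on opposite sides of the glands without overlap. The share of other gene pairs that separate in this way was not computed.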
